A study of Xenopus laevis with 3 samples.

Results

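The genes described here are those whose names mark them as factors of ribosome assembly or as proteins of the nucleolus. They were taken by name alone, as every feature called nop, utp, rrp or nol with a number, wdr12, bop1, fbl, ncl, dkc1, gar1, nhp2, imp3 or imp4. The rule found 64 of the 44454 named features among 44478 in all. *Xenopus laevis* is an allotetraploid and has homeologs of many genes, marked .L and .S, so the 64 members stand for 42 gene names, 22 with both homeologs and 20 with 1. By role, 5 belong to the box C/D particle, 5 to the box H/ACA particle, 27 to the small subunit processome and 17 to the maturation of the large subunit. A further 6, called the remaining genes below, are *ncl.L*, *ncl.S*, *nol7.L*, *nop9.L*, *rrp12.L* and *rrp12.S*. The other 4 are the homeologs of *nol4* and *nol4l*, which the name rule took in and which have no known role in ribosome assembly.

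Ribosomes are assembled in the nucleolus, where RNA polymerase I transcribes the rDNA into a long precursor of the rRNAs. The box C/D particle, with fibrillarin (*fbl*), *nop56* and *nop58*, methylates this precursor, and the box H/ACA particle, with the pseudouridine synthase dyskerin (*dkc1*), *gar1*, *nhp2* and *nop10*, converts uridines in it. The processome folds and cuts the small subunit part, and another series of factors, *bop1* and *wdr12* among them, matures the large subunit. Amphibian oocytes are known for amplifying their rDNA in meiotic prophase, around pachytene, and for the very large number of ribosomes that they store while they grow.

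The data are single-cell transcriptomes of 3 ovaries, each from a separate untreated wild-type juvenile between Nieuwkoop-Faber stages 62 and 66, with 1 library per ovary. All groups below are groups of cells within these 3 ovaries, so n is 3 ovaries unless another n is given, and cells of an ovary were not taken as replicates. After the filters of the study, 5614, 5353 and 6180 cells of ovaries 1, 2 and 3 were kept, with 24068477, 42580402 and 26863818 unique molecular identifiers (UMIs). The level of a gene is given as its UMIs per 10000 UMIs of a cell, averaged over the cells of a group in an ovary and then over the ovaries, with the SD over ovaries. Since the libraries read the ends of transcripts, levels were tested between groups of cells and not between genes. Sums over genes and shares of homeolog pairs do set genes side by side and are given as a description.

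The samples are labelled as germline cells, but 8976 of the 17147 kept cells lay in somatic clusters and 8171 in germline clusters, which were told apart by *ddx4* and *dazl*. Germline clusters were named from stage markers and are called "like" for that reason. Of the cells, 165 were germline stem cell (GSC)-like, 253 G2/M-like, 997 pre-meiotic S-like, 1343 leptotene-zygotene-like, 938 pachytene-like, 1120 early diplotene-like and 687 stage 1 follicle-like. Germline cluster 3, with 967 cells, lay between the pachytene-like and early diplotene-like clusters and was left without a name. Ovary 1 gave only 37 pachytene-like and 18 early diplotene-like cells, against 630 and 889 in ovary 2 and 271 and 213 in ovary 3. The name pachytene-like is the least firm of these, because the leptotene and zygotene markers were still present there. From the leptotene-zygotene-like to the pachytene-like cluster, the level of the recombinase gene *dmc1.L* went from 5.17 ± 0.56 to 1.61 ± 0.04, that of the synaptonemal complex gene *syce2.L* from 6.67 ± 0.61 to 5.77 ± 0.85, and that of the oocyte factor *figla.L* from 1.36 ± 0.06 to 2.72 ± 0.54. Cluster 3 had *syce2.L* at 2.54 ± 0.62 and *figla.L* at 4.34 ± 0.60, the genes that the study lists as markers of late pachytene. Depth differed along the same path, since the median UMI count per cell was 1930 ± 340 in the leptotene-zygotene-like cluster, 4250 ± 1180 in the pachytene-like and 18300 ± 2160 in the early diplotene-like.

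The summed level of the members was high in dividing and pre-meiotic germ cells, low in the leptotene-zygotene-like cluster, and high again from the pachytene-like cluster onwards. It was 61.3 ± 4.99 in GSC-like cells, 77.3 ± 2.98 in G2/M-like cells and 68.0 ± 4.11 in pre-meiotic S-like cells. In the same order *ncl.L* was at 4.76, 17.7 and 15.5, *ncl.S* at 5.98, 14.7 and 11.1, and the box C/D genes at 7.14, 9.61 and 9.56. The other roles were highest in GSC-like cells, with the processome at 19.0, 15.6 and 13.4. The large subunit genes were at 16.9, 13.2 and 12.4 and the box H/ACA genes at 5.22, 4.45 and 4.06. In the leptotene-zygotene-like cluster the sum of all members was 32, 45.1 and 45.7 in ovaries 1, 2 and 3, with a mean of 40.9 ± 7.72. In the pachytene-like cluster it was 86.4, 88.5 and 90.8, with a mean of 88.6 ± 2.20. Each ovary of the leptotene-zygotene-like cluster thus lay below every ovary of the stages before and after it. The ratio of the pachytene-like to the leptotene-zygotene-like level was 2.70 in ovary 1, 1.96 in ovary 2 and 1.99 in ovary 3. The level then stayed within a narrow range, at 88.9 ± 0.89 in cluster 3, 86.5 ± 0.11 in early diplotene-like cells and 87.9 ± 10.6 in stage 1 follicle-like cells. The wider spread of the last came from ovary 1, at 75.8 against 95.7 and 92.3.

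**Figure D1:**
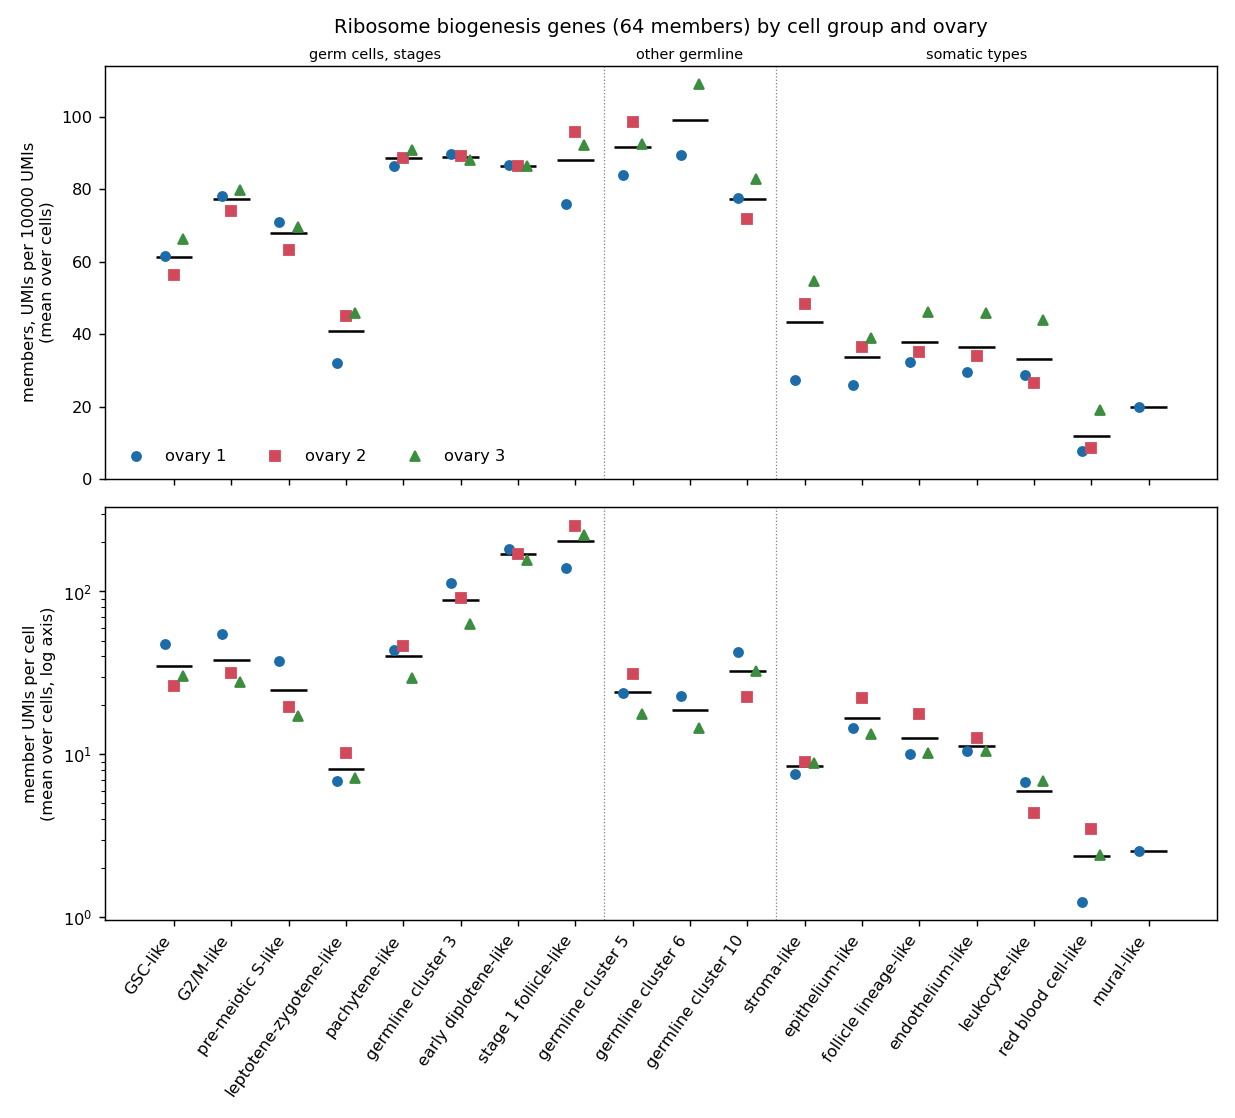
Summed level of the 64 members per 10000 UMIs (upper panel) and their UMIs per cell on a log axis (lower panel) in each cell group, with 1 point per ovary and a bar at the mean. The leptotene-zygotene-like points, at 32 to 45.7 per 10000 UMIs, lie below the points of all other numbered or named germline groups and among those of the somatic types.

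A level per 10000 UMIs is a share of a cell's RNA, and the cells grew. The number of member UMIs per cell was 34.7 ± 11.3 in GSC-like, 38.1 ± 14.8 in G2/M-like and 24.8 ± 11.3 in pre-meiotic S-like cells. It was 8.09 ± 1.86 in leptotene-zygotene-like, 40.0 ± 9.14 in pachytene-like and 89.0 ± 25.2 in cluster 3 cells. For early diplotene-like and stage 1 follicle-like cells it was 170 ± 13.9 and 205 ± 58.4. From pachytene-like to stage 1 follicle-like cells the summed level thus stayed between 75.8 and 95.7 in every ovary while the number of captured transcripts per cell rose. UMIs per cell depend on the capture of RNA as well as on its amount, which cannot be told apart here.

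The entry into meiosis was compared first, as the leptotene-zygotene-like against the pre-meiotic S-like cluster. Of the 64 members, 29 fell, none rose, 28 did not pass the test and 7 were too low to be tested (edgeR's quasi-likelihood test on the UMIs summed per ovary, Benjamini-Hochberg adjusted over all genes). Over the 12883 genes tested 21.7% were called lower and 21.4% higher. With unadjusted p under 0.05, a count not taken over all genes, 2 members were higher and 32 lower. DESeq2 called 23 members lower and 0 higher, beside 2194 of 32797 genes lower and 2149 higher. Here and below, DESeq2 totals count every gene with a fold change, including low genes and any without an adjusted p. Shares of these totals are therefore unlike those of edgeR's tested genes. The median log2 fold change was -0.76 over the 57 members tested and 0.00 over all genes tested.

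Among the genes named by the rule, the largest falls were in the box C/D particle and in large subunit factors. The level of *nop56.L* (XBXL10_1g27) was 4.96, 5.65 and 6.0 in the pre-meiotic S-like cells of ovaries 1, 2 and 3 and 0.56, 1.74 and 1.46 in the leptotene-zygotene-like cells. The ovaries did not overlap, and the log2 fold change was -2.44 ± 0.28 (SE, adjusted p = 3.01e-05). The log2 fold changes of *fbl.S* (XBXL10_1g33927) and *fbl.L* (XBXL10_1g32116) were -2.08 ± 0.39 and -1.67 ± 0.38 (adjusted p = 0.000883 and 0.00335). Of the 5 box C/D genes 4 fell, and the exception was *nop58.L* (XBXL10_1g40888), at 1.95 ± 0.33 before and 2.03 ± 0.78 after.

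The nucleolar gene *rrp1b.L* (XBXL10_1g6031), whose human product acts on late large subunit precursors, had the largest fall of all members named by the rule. Its level was 0.77, 1.03 and 0.72 in pre-meiotic S-like cells and 0.02, 0.22 and 0.27 in leptotene-zygotene-like cells, and its log2 fold change was -2.58 ± 0.37 (adjusted p = 0.00016). For *wdr12.L* (XBXL10_1g40885) the change was -2.35 ± 0.34, and for *rrp8.L* (XBXL10_1g8958), an rRNA methyltransferase gene, it was -2.31 ± 0.43. In all, 10 of 17 large subunit genes fell, as did 10 of 27 processome genes and 4 of the 6 remaining genes, both nucleolin genes (*ncl*) among them. The processome gene *utp15.L*, picked out after its values were seen, had a larger fitted fall (log2 -3.48 ± 0.61) that rests on 5 UMIs in the leptotene-zygotene-like against 61 in the pre-meiotic S-like sums. *ncl.L* (XBXL10_1g23829) fell by 1.20 ± 0.16 and *ncl.S* (XBXL10_1g25706) by 1.41 ± 0.20 on the log2 scale.

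Of the 5 box H/ACA genes 1 fell, *gar1.L*, by 1.24 ± 0.28, while *dkc1.L* (XBXL10_1g34737) was at 2.68 ± 0.77 before and 2.69 ± 0.95 after and *gar1.S* at 0.69 ± 0.19 and 0.90 ± 0.03. *bop1.L* missed the threshold (log2 fold change -0.87 ± 0.34, adjusted p = 0.0525) and passed it with the ovary as a block (adjusted p = 0.0309). With germline clusters cut more finely, at a resolution of 1.0, 16 of 40 members tested were called, of which 2 were higher. Over all genes 3306 of 7737 were called there, 1715 higher and 1591 lower. The summed level of 82 somatic marker genes was 2.46 ± 0.11 in the pre-meiotic S-like and 4.18 ± 0.49 in the leptotene-zygotene-like cluster, against 175 ± 45.0 in somatic cells. Its part in the result was not tested.

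Pachytene-like cells were then set against leptotene-zygotene-like cells, around the stage at which rDNA is amplified. Of the 64 members, 37 rose and none fell, while 17 did not pass the test and 10 were too low to be tested. With unadjusted p under 0.05, a count not taken over all genes, 45 members were higher and 0 lower. DESeq2 called 31 members higher and 0 lower, beside 672 of 32948 genes higher and 492 lower. Over all 11669 genes tested 8.30% were called higher and 8.42% lower. The median log2 fold change was 1.16 over the 54 members tested, which ranged from -0.03 to 2.15, and -0.03 over all genes tested. Among all 64 members the level was higher in the pachytene-like cluster in 3 of 3 ovaries for 49, which was not counted over all genes either. This comparison shares the leptotene-zygotene-like sums with the one before, so the 2 are not independent of each other.

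All 5 box C/D genes rose. The level of *nop56.L* was 0.56, 1.74 and 1.46 in the leptotene-zygotene-like cells of the 3 ovaries and 3.83, 5.13 and 5.01 in the pachytene-like cells. The groups did not overlap, and the rise was 3.61-fold (log2 1.85 ± 0.30, adjusted p = 0.00389). *fbl.L* went from 0.05, 0.18 and 0.28 to 0.62, 0.53 and 0.71, again without overlap, a log2 fold change of 1.83 ± 0.37 (adjusted p = 0.00791). *fbl.S*, *nop58.S* and *nop58.L* rose by 1.62 ± 0.41, 1.49 ± 0.27 and 1.21 ± 0.29.

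Of the box H/ACA genes 3 of 5 rose. The level of *dkc1.L* was 1.59, 3.12 and 3.35 in the leptotene-zygotene-like and 4.81, 6.27 and 6.26 in the pachytene-like cells, with no overlap and a log2 fold change of 1.15 ± 0.24 (adjusted p = 0.00897). *gar1.L* and *gar1.S* rose by 1.29 ± 0.26 and 0.84 ± 0.19. *nhp2.S* had a fold change of similar size but a wide error, at 1.20 ± 0.48 (adjusted p = 0.109, and 0.011 with the ovary as a block), and *nop10.S* was at 0.48 ± 0.31 (adjusted p = 0.302).

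In the maturation of the large subunit 10 of 17 genes rose, and the largest rise of any member was among them. The level of *wdr12.S* (XBXL10_1g43660) was 0.19, 0.44 and 0.26 in the leptotene-zygotene-like cells and 1.36, 1.33 and 1.32 in the pachytene-like cells. The pachytene-like ovaries lay close together and far above the others, at a 4.45-fold rise (log2 2.15 ± 0.24, adjusted p = 0.00124). *rrp1b.L* rose by 2.06 ± 0.39, *rrp8.L* by 1.87 ± 0.40 and *wdr12.L* by 1.41 ± 0.27. Neither homeolog of *bop1*, which acts in one complex with *wdr12*, passed the test, at 0.63 ± 0.41 for *bop1.L* and 0.37 ± 0.27 for *bop1.S*.

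In the small subunit processome 16 of 27 genes rose and 5 were not tested, among them *imp3.L* and *imp3.S* with a mean of 9.0 and 8.33 UMIs per sum. *imp4.S* rose by 1.18 ± 0.31 (adjusted p = 0.0241). Of the 6 remaining genes 3 rose, including *ncl.S* by 1.45 ± 0.20 and *ncl.L* by 0.74 ± 0.17. The levels of *ncl.S* were 3.89, 5.39 and 6.04 before and 15, 13 and 13.9 after. 3 members had log2 fold changes close to 0 and were picked out after their values were seen, namely *rrp8.S* (0.03 ± 0.28), *nol9.L* (-0.02 ± 0.22) and the processome gene *nol11.L* (-0.03 ± 0.25).

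The count of called members depended on the ovaries. Without ovary 2, 2 members were called, *wdr12.S* among them (adjusted p = 0.0371), and without ovary 3, 11 were. Over all genes the calls also became few, at 20 of 10662 without ovary 2 and 254 of 13227 without ovary 3. The median log2 fold change of the members tested was 1.19 and 1.18. The level of the 82 somatic markers was 4.18 ± 0.49 in the leptotene-zygotene-like and 4.87 ± 0.86 in the pachytene-like cluster. When the deeper sum of each ovary was thinned to the shallower, 36 members were called, beside 1552 of 11345 genes.

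**Figure D2:**
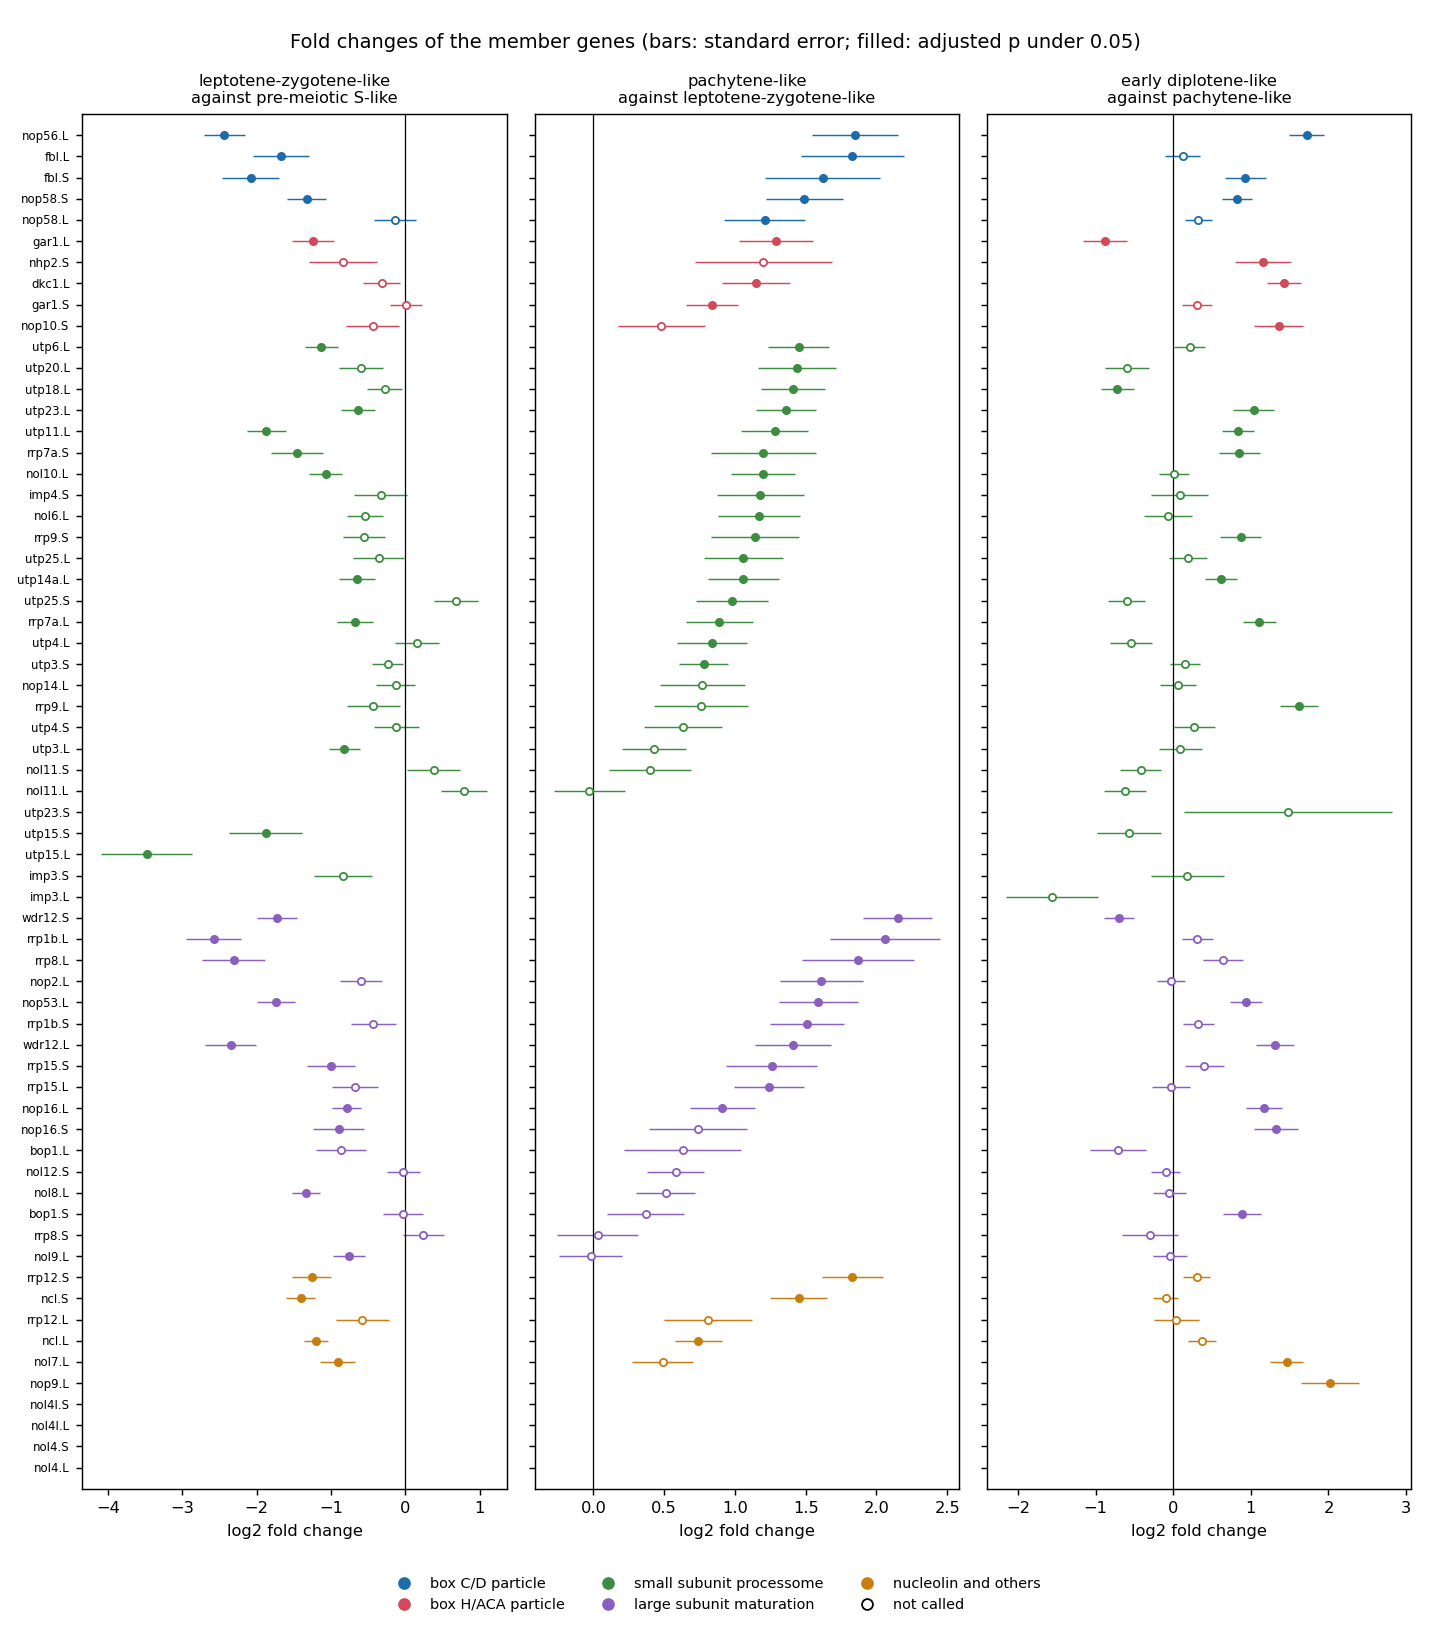
Log2 fold change of each member in the comparisons on both sides of the leptotene-zygotene-like and pachytene-like clusters, by role, with the standard error; filled points have an adjusted p under 0.05 and genes without a point were not tested. In the middle panel all 37 called members lie to the right of 0, and in the left panel all 29 lie to the left.

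Grouped by role, the stages at which the members were highest differed. The summed level of the 5 box C/D genes was 4.19 ± 1.80 in the leptotene-zygotene-like, 12.1 ± 1.62 in the pachytene-like and 16.8 ± 2.63 in the early diplotene-like cluster. That of the 5 box H/ACA genes was 4.09 ± 0.92, 8.36 ± 0.63 and 12.1 ± 1.89 in the same order. A single gene made up most of each sum in early diplotene-like cells, *nop56.L* with 9.91 of the 16.8 and *dkc1.L* with 9.65 of the 12.1. Not all genes of the particles had this order, since *nop58.L* and *gar1.S* had their highest mean in pachytene-like cells and *gar1.L* in GSC-like cells. The 27 processome genes were at 11 ± 1.85, 22.3 ± 0.82 and 19.2 ± 2.10, and at 17.7 ± 0.38 in stage 1 follicle-like cells. The sum and the fit differ for them after pachytene. The fit of early diplotene-like against pachytene-like cells is scaled by TMM factors and made gene by gene. Over the 26 processome genes tested its median log2 fold change was 0.12. It called 7 of them higher and 1 lower, beside 22.5% of 15164 genes called higher and 20.8% lower. The 17 large subunit genes were at 16.9 ± 1.82 in GSC-like cells, 7.59 ± 1.34 in the leptotene-zygotene-like, 16.7 ± 0.70 in the pachytene-like and 13.8 ± 1.45 in the stage 1 follicle-like group, and in the same fit 5 of them were called higher and 1 lower, with a median of 0.31. Of the 64 members, 17 had their highest mean in GSC-like cells, 15 in pachytene-like, 10 each in early diplotene-like and stage 1 follicle-like and 6 in cluster 3 cells. The lowest of the 8 stages was the leptotene-zygotene-like cluster for 30 members, and for 14 of them in every ovary. Highest and lowest stages were not counted over all genes.

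**Figure D3:**
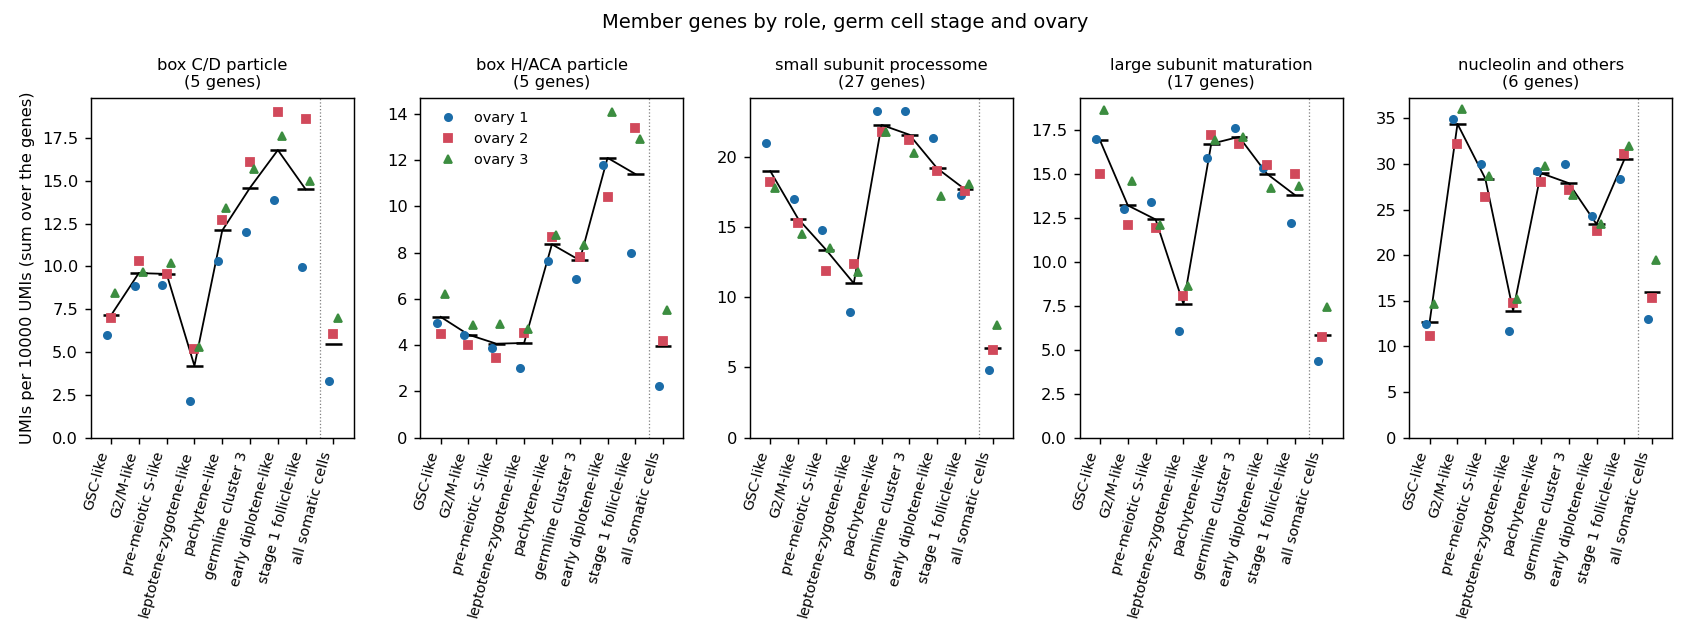
Summed level per 10000 UMIs of the members of each role in the germ cell stages and in all somatic cells, with 1 point per ovary, a bar at the mean and a line through the means of the stages. The box C/D genes run from 4.19 in the leptotene-zygotene-like to 16.8 in the early diplotene-like cluster, whereas the processome genes are highest in the pachytene-like cluster, at 22.3.

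At the exit from pachytene the members moved in both directions. Of the 64, 20 were higher and 3 lower in the early diplotene-like than in the pachytene-like cluster, 36 did not pass the test and 5 were not tested. Over 15164 genes 22.5% were called higher and 20.8% lower, beside which 20 of the 59 members tested were called higher and 3 lower. With the ovary as a block 26 members were higher and 8 lower, beside 5111 of 16847 genes called higher and 4679 lower. The median log2 fold change was 0.27 over the members tested and 0.00 over all genes tested. The summed level of the members did not rise, with ratios of 1, 0.977 and 0.953 in ovaries 1, 2 and 3. The fit adds up the UMIs of the cells and scales them by TMM factors, so its changes can differ from those of the levels. Cells of cluster 3 were left out of this comparison, and only 18 early diplotene-like cells of ovary 1 entered it. It shares the pachytene-like sums with the comparison before.

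The gene *nop9.L* (XBXL10_1g36809), whose yeast counterpart binds the small subunit precursor, had the largest rise. Its level was 0.00, 0.12 and 0.08 in pachytene-like and 0.21, 0.27 and 0.30 in early diplotene-like cells, a log2 fold change of 2.02 ± 0.37 (adjusted p = 0.00119). *nop56.L* went on rising, from 3.83, 5.13 and 5.01 to 7.19, 11.8 and 10.7, without overlap and with a log2 fold change of 1.72 ± 0.23 (adjusted p = 0.000143). *dkc1.L* also rose further, by 1.43 ± 0.22 (adjusted p = 0.000346), from 5.78 ± 0.84 to 9.65 ± 2.02.

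The processome gene *rrp9.L* (XBXL10_1g19869) rose by 1.62 ± 0.24 and *nol7.L* (XBXL10_1g27644), known in human cells as a factor of small subunit processing, by 1.46 ± 0.21. Of the partners of dyskerin, *nop10.S* rose by 1.36 ± 0.32 and *nhp2.S* by 1.16 ± 0.36, whereas *gar1.L* fell and *gar1.S* did not pass the test. *wdr12.L* rose by 1.31 ± 0.25, and *bop1.S*, *fbl.S* and *nop58.S* rose by 0.89 ± 0.25, 0.93 ± 0.27 and 0.82 ± 0.19. In level the rise was smaller for *bop1.S*, from 0.39 ± 0.12 to 0.45 ± 0.03, and for *nop58.S*, from 1.77 ± 0.42 to 2.09 ± 0.18. The 3 members that fell were *gar1.L*, *utp18.L* and *wdr12.S*. Their log2 fold changes were -0.88 ± 0.29, -0.72 ± 0.22 and -0.70 ± 0.19 (adjusted p = 0.0281, 0.0178 and 0.0103). The level of *utp18.L* (XBXL10_1g39760), a processome gene, was 1.63, 1.65 and 1.23 in pachytene-like and 0.51, 0.77 and 0.49 in early diplotene-like cells. These did not overlap.

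*fbl.L*, *nop58.L*, *ncl.S*, *imp3.S*, *imp4.S* and *bop1.L* did not pass the test, with log2 fold changes from -0.71 to 0.32. Neither did *gar1.S* (0.30 ± 0.19), *ncl.L* (0.37 ± 0.18) and *imp3.L* (-1.56 ± 0.60), but these 3 passed it with the ovary as a block, at an adjusted p of 0.0278, 0.0423 and 0.0371. The count of called members was 12 without ovary 2 and also 12 without ovary 3, beside 3047 of 9573 and 3319 of 14257 genes. Further along the path, in the stage 1 follicle-like against the early diplotene-like cluster, 1 of 60 members tested was called. It was *rrp15.S* (XBXL10_1g24962), a gene of large subunit maturation, which rose by 1.06 ± 0.27 (adjusted p = 0.0465), against 5.71% of 14843 genes called higher and 2.72% lower. Its level was 0.28, 0.49 and 0.55 in early diplotene-like and 1.04, 0.54 and 0.75 in stage 1 follicle-like cells, and these overlapped. The count was 3 with the ovary as a block, *bop1.S* among them (adjusted p = 0.0276 against 0.0596), beside 3335 of 16462 genes. The call of *rrp15.S* was lost when any 1 of the ovaries was left out. Without ovary 1, 2 and 3, 0 of 17744, 1152 of 14777 and 0 of 14810 genes were called. With unadjusted p under 0.05, a count not taken over all genes, 7 members were higher and 2 lower.

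Before meiosis, pre-meiotic S-like cells were compared with GSC-like cells. Of the 64 members 7 were higher and 2 lower, 43 did not pass the test and 12 were not tested, beside 19.8% of 10120 genes called higher and 21.1% lower. The median log2 fold change was 0.13 over the members tested and -0.02 over all genes tested. The balance of the calls turned with the clustering, as 5 members were higher and 7 lower at a resolution of 1.0, with a median of -0.20, and 14 were higher and 0 lower without integration. Over all genes these settings called 1598 of 7076 higher and 1626 lower, and 2344 of 11358 higher and 2302 lower. The cells compared were not the same in these settings. Without integration the cluster closest to the pre-meiotic S-like cells was also the closest to the G2/M-like cells. Its overlap with the pre-meiotic S-like cluster, as shared cells over the cells in either, was 0.446. At a resolution of 1.0 that overlap was 0.464. The largest change was that of the nucleolin gene *ncl.L*. The level of *ncl.L* was 4.62, 3.93 and 5.74 in GSC-like and 16.2, 14.5 and 15.9 in pre-meiotic S-like cells, far apart in every ovary (log2 1.92 ± 0.18, adjusted p = 4.26e-07). *ncl.S* rose by 1.32 ± 0.17, *rrp1b.L* by 1.44 ± 0.26, *nop56.L* by 1.28 ± 0.19, *fbl.S* by 1.02 ± 0.34 and *nop58.S* by 0.57 ± 0.20. The rise of *nop58.S* in the fit was not seen in its level in every ovary. That level was 1.05, 1.21 and 1.19 in GSC-like and 1.46, 1.21 and 1.14 in pre-meiotic S-like cells, with overlap.

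Lower in the pre-meiotic S-like cells were *wdr12.S*, by 0.67 ± 0.23 on the log2 scale, and the processome gene *rrp7a.S* (XBXL10_1g21932), which fell by 0.77 ± 0.29. No processome gene rose, also with unadjusted p under 0.05, and the summed level of the 27 went from 19.0 ± 1.77 in GSC-like to 13.4 ± 1.43 in pre-meiotic S-like cells. In the fit their median log2 fold change was -0.01, and 10 of the 21 tested had a positive value. The summed level of the 6 remaining genes went from 12.7 ± 1.80 to 28.4 ± 1.82, and it was 34.4 ± 1.94 in G2/M-like cells. In pre-meiotic S-like cells *ncl.L* and *ncl.S* made up 15.5 and 11.1 of the 28.4. With the ovary as a block 16 members were called, among them *fbl.L* (adjusted p = 0.0484 against 0.146), beside 5635 of 11879 genes. The level of the 82 somatic markers was 8.63 ± 0.03 in the GSC-like cluster, the highest of the 7 named stages, and its part in these differences was not tested.

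All germline cells were also set against all somatic cells of the same ovaries. The summed level of the members was 67.7, 78.9 and 84.6 in the germline and 27.9, 37.5 and 47.6 in the soma of ovaries 1, 2 and 3, without overlap. The ratio was 2.43, 2.10 and 1.78. Of the 64 members 25 were higher in the germline, none was lower, 36 did not pass the test and 3 were not tested, beside 20.9% of 23175 genes called higher and 27.5% lower. With unadjusted p under 0.05, a count not taken over all genes, 29 members were higher and 0 lower. DESeq2 called 29 members higher and 0 lower, beside 6039 of 37442 genes higher and 7291 lower. The median log2 fold change was 0.80 over the members tested and 0.07 over all genes tested.

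The largest difference was that of *wdr12.S*. Its level was 0.56, 0.94 and 0.65 in the germline and 0.03, 0.09 and 0.08 in the soma (log2 2.41 ± 0.44, adjusted p = 0.00353). The processome genes *rrp9.L*, *rrp9.S* and *utp23.L* were higher by 1.71 ± 0.40, 1.61 ± 0.34 and 1.43 ± 0.30, and *rrp8.S* by 1.68 ± 0.28. Of the 27 processome genes 13 were higher, as were 8 of the 17 large subunit genes, with *wdr12.L* at 1.25 ± 0.25 and *bop1.S* at 1.11 ± 0.35.

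No box C/D gene passed the test, also with unadjusted p under 0.05, and neither did nucleolin, with log2 fold changes of 0.15 ± 0.27 for *ncl.L* and -0.02 ± 0.27 for *ncl.S*. Their levels did differ, without overlap. *ncl.L* was at 13.8, 11.7 and 15.5 in the germline and 6.63, 7.5 and 9.42 in the soma. *ncl.S* was at 9.98, 10.6 and 12.2 and at 5.48, 6.89 and 8.67, and the box C/D sum at 11.4 ± 3.03 and 5.46 ± 1.92. Levels average cells, whereas the fit adds up their UMIs and scales them by TMM factors. What made them differ was not tested. Of the box H/ACA genes *gar1.S* and *nhp2.S* were higher, by 1.17 ± 0.30 and 1.34 ± 0.35, as was *imp4.S* by 1.21 ± 0.31. With the ovary as a block 42 members were called, 41 of them higher, beside 7271 of 24856 genes called higher and 7648 lower. Members that the block added include *nop56.L*, *nop58.L*, *dkc1.L*, *nop10.S* and *bop1.L*, with adjusted p of 0.0364, 0.0132, 0.042, 0.0226 and 0.0236 against 0.145, 0.126, 0.245, 0.0569 and 0.105. The 1 member called lower with the block was *imp3.L* (log2 -0.96, adjusted p = 0.0242 against 0.0907). Its level did not differ, at 0.0655 ± 0.0175 in the germline and 0.0655 ± 0.0203 in the soma, and it had only 414 UMIs in all kept cells. Without ovary 1, 2 or 3 the count of members was 15, 11 and 6, beside 8217 of 24008, 9619 of 23731 and 5281 of 23869 genes.

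Ribosomal protein genes took 32.5 ± 3.79% of the UMIs of somatic cells and 14.8 ± 0.47% of those of germline cells. With these UMIs left out of the total, a choice made after the data were seen, the members were at 90.4 ± 9.82 in the germline and 55.4 ± 12.7 in the soma, and 25 members were called as before. Among somatic types the summed level was 43.4 ± 14.4 in stroma-like, 37.7 ± 7.32 in follicle lineage-like, 36.4 ± 8.39 in endothelium-like, 33.8 ± 6.82 in epithelium-like and 33.0 ± 9.46 in leukocyte-like cells. The spread over ovaries overlapped between these types. Within ovaries, the level was higher in stroma-like than in epithelium-like cells in 3 of 3, and in follicle lineage-like than in endothelium-like cells in 3 of 3. These differences were not tested. In red blood cell-like cells it was 11.8 ± 6.29, and in mural-like cells 20 in the only ovary with enough cells. Ovary 3 had the highest level in each of the 6 types measured in all 3 ovaries. Transcripts of oocyte genes were also found in somatic cells. In ovaries 1, 2 and 3 *42sp43.L* was there at 0.705, 1.46 and 4.6 and *zp4.L* at 0.247, 0.0319 and 0.997, highest in ovary 3. *figla.L*, at 0.0658, 0.435 and 0.412, was not. The part of oocyte RNA in the somatic levels of the members was not tested. Among the stroma-like clusters, the one with dividing cells (cluster 7, with G2/M markers at 19.2 ± 7.02) had the members at 44.2 ± 14.5 and the largest other (cluster 0, with G2/M markers at 4.03 ± 2.16) at 42.3 ± 14.2.

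The homeologs of a gene did not always move together. Of the UMIs of the *wdr12* pair, *wdr12.L* took 27.3, 24.7 and 28.3% in the pachytene-like cells of ovaries 1, 2 and 3 and 71.9, 55.9 and 54.1% in the early diplotene-like cells. The share of *wdr12.L* was thus higher after pachytene in all 3 ovaries, beside the rise of *wdr12.L* and the fall of *wdr12.S* given above. For *rrp8* the share of the .L gene was 46.4, 36.6 and 41.5% in pre-meiotic S-like, 2.27, 15.2 and 14.6% in leptotene-zygotene-like and 29.2, 29.2 and 34.7% in pachytene-like cells. For *rrp1b* it was 71.2 ± 6.91% in pre-meiotic S-like and 38.6 ± 1.97% in leptotene-zygotene-like cells, the latter in the 2 ovaries with at least 20 UMIs of the pair. For nucleolin the mean share of *ncl.L* ran from 45.4 ± 0.74% to 60.4 ± 5.20% over the stages. It was 66.3, 58.4 and 56.4% in leptotene-zygotene-like and 43.2, 49.2 and 49.6% in pachytene-like cells, lower in all 3 ovaries. These shares were not tested. They rest on reads that could be assigned to 1 gene, since reads that match both homeologs equally well are not counted at the default settings of Cell Ranger.

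**Figure D4:**
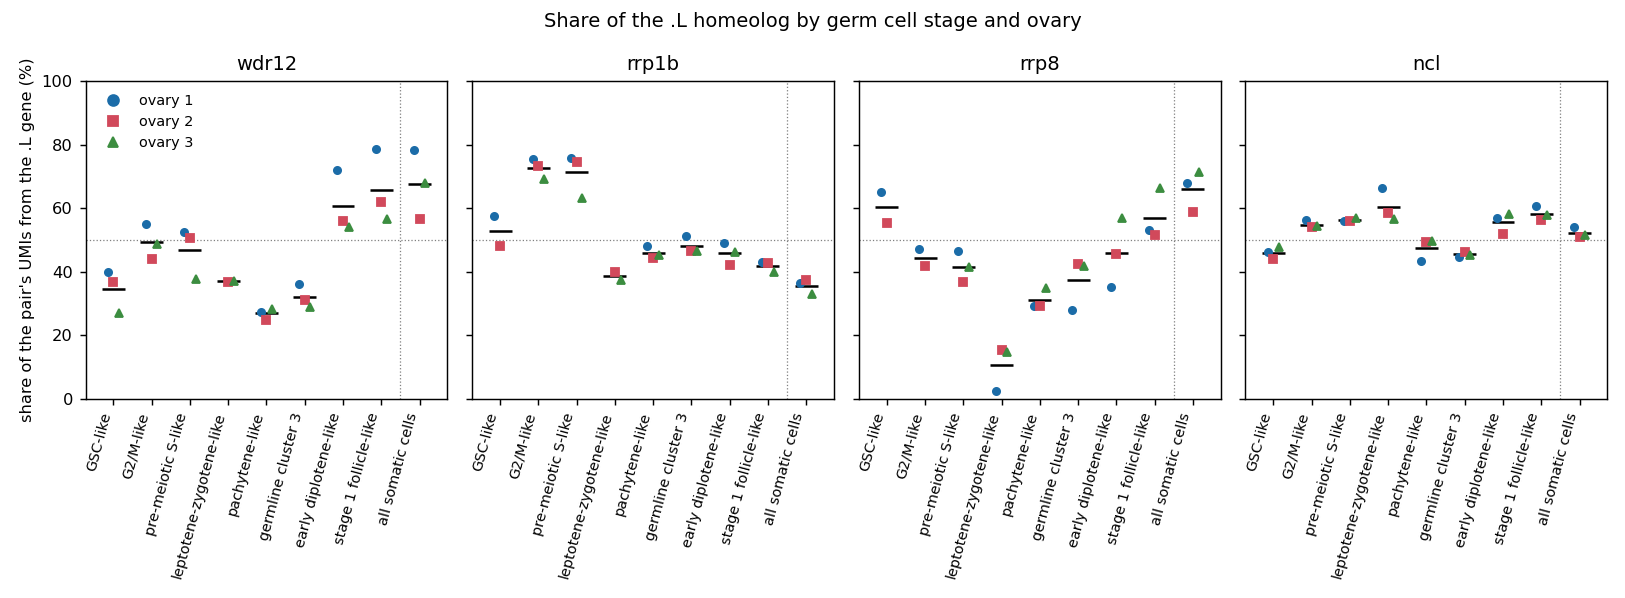
Share of the UMIs of 4 homeolog pairs that came from the .L gene, in percent, by germ cell stage and in all somatic cells, with 1 point per ovary and a bar at the mean (ovaries with under 20 UMIs of a pair have no point). The *wdr12* points lie between 24.7 and 28.3% in the pachytene-like and between 54.1 and 71.9% in the early diplotene-like cluster.

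Other genes of ribosome production were counted in the same fits. Of 87 further assembly factors 47 fell and 4 rose in leptotene-zygotene-like against pre-meiotic S-like cells, and 53 rose and 1 fell in pachytene-like against leptotene-zygotene-like cells, where their median log2 fold change was 1.15. Of 11 features for RNA polymerase I and its factors 5 fell and none rose in the first of these comparisons, and 5 rose and none fell in the second. Genes for the rDNA transcription factor UBTF were among them, and *ubtf.S* was at 0.43 ± 0.21 in leptotene-zygotene-like, 3.19 ± 0.59 in pachytene-like and 5.23 ± 0.71 in cluster 3 cells. Of 16 features of the nuclear exosome, which trims rRNA precursors, 13 were tested in each. Of these, 4 fell and 0 rose in the first, and 6 rose and 0 fell in the second. Beside these counts, 21.7% of all genes tested were called lower and 21.4% higher in the first comparison. In the second 8.30% were called higher and 8.42% lower.

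The ribosomal protein genes did not move with the assembly factors at every step. Of 136 such features, 87 fell and 1 rose from pre-meiotic S-like to leptotene-zygotene-like cells. In pachytene-like against leptotene-zygotene-like cells 12 rose and 15 fell, with a median log2 fold change of -0.16 where that of the members was 1.16. In early diplotene-like against pachytene-like cells 131 of the 136 rose, with a median of 1.38 where that of the members was 0.27. The difference between these lists was not tested.

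Over 14 named germline and somatic groups, the genes outside the list whose mean log2 level followed the members' sum most closely were *LOC108716102* (Pearson's r = 0.967), *brix1.S* (0.965), *nono.L* (0.959), *krr1.S* (0.954) and *sf3a2.S* (0.952), out of 3115 genes compared. The groups come from the same 3 libraries, so these values are a description. The *nol4* and *nol4l* genes, with no known role in the nucleolus's work, were at most 0.35 ± 0.14 in sum, in GSC-like cells, and only 1 of the 4 could be tested in any comparison.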

How the data were processed

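Single cells of 3 juvenile ovaries were captured on the 10x Chromium system, with about 10000 cells loaded per ovary. The authors ran Cell Ranger 8.0.1 at default settings and deposited its UMI counts of each gene in each cell as whole numbers, without normalization, for 5987, 6302 and 6964 barcodes called as cells, with 54585110, 50307231 and 34060121 UMIs. The genome build is not given in the sources used here, so no coordinates or sequences are given. Unnamed features, which took 0.363 to 0.443% of the UMIs, were not used. At these settings reads that match several genes, such as both homeologs, are not counted. Pairs of libraries shared 12, 6 and 16 barcodes.

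The filters of the study (100 to 8000 genes, at most 1.5% mitochondrial UMIs) and its steps (Seurat, 2000 variable genes, canonical correlation analysis, 20 dimensions at resolution 1 for all cells, 30 dimensions at resolution 0.5 for the germline) were followed with Seurat 5.3.0 in R 4.3.3. Members were left out of the variable genes. Names of clusters were rebuilt from marker lists and may differ from those of the study. Germline clusters had *ddx4* and *dazl* at 5 or more per 10000 UMIs. Scrublet in scanpy 1.11.5 called 48, 6 and 32 doublets, 0.112% of the cells of ovary 2, so it did not work there. Doublets were kept.

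For each ovary the UMI counts of a group's cells were added up, given at least 10 cells, and 3 sums were set against 3 in 6 comparisons. They were tested with edgeR 4.0.16 (quasi-likelihood, two-sided, TMM factors, low genes removed with filterByExpr), adjusted by Benjamini-Hochberg over all genes tested at 0.05. Every adjusted p is from this test, except where the ovary as a block or a left-out ovary is named. This test used the group only and left out the pairing by animal. The 3 ovaries are 3 animals, and both sums of a comparison come from the same animals. Within an ovary, deviations of both sums from their group means correlated at 0.151 to 0.518, so the sums are paired by animal, and the ovary as a block was an alternative beside DESeq2 1.42.0, no filter, leaving out each ovary, thinning, other clusterings and other cell filters. The test was also run on simulated counts, whose outcome is not given here and from which no conclusion is drawn.

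Genes named are *fbl*, *ncl*, *dkc1*, *nop56*, *nop58*, *gar1*, *nhp2*, *nop10*, *bop1*, *wdr12*, *imp3* and *imp4*, and in each comparison up to 5 called members with the largest rise and 5 with the largest fall, with a mean of at least 20 UMIs per sum and the same direction in 3 of 3 ovaries. Likeness of pattern was taken on log2(level + 0.1) among genes with a mean level of at least 0.5. The members, lists and comparisons were chosen with earlier results of these data known. Figures and tables were made with Python 3.11.15, pandas 2.3.3 and matplotlib 3.10.9.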

Additional observations from a re-analysis of the deposited data

Results flagged for a closer look

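The filter of the study leaves out cells with over 8000 detected genes, which numbered 225, 54 and 58 in ovaries 1, 2 and 3 and were in no comparison above. With the UMIs of these cells pooled in each ovary, the members took 62.4, 80.9 and 65.2 per 10000 UMIs, with a mean of 69.5. Those of ovary 1 held a mean of 134000 UMIs each. In stage 1 follicle-like cells, the largest that were kept, the level was 75.8, 95.7 and 92.3. That level is a mean over cells and not a pooled share, so the measures are unlike. The difference was not tested.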

How the results depend on the processing

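Counts of called members stayed within 1.5 times the values above in most settings. Leaving out 1 ovary gave 2 to 35 called members for pachytene-like against leptotene-zygotene-like, 12 to 26 for early diplotene-like against pachytene-like, 6 to 15 for germline against soma, 5 to 8 for pre-meiotic S-like against GSC-like, and 0 in every case for stage 1 follicle-like against early diplotene-like. The calls over all genes moved too, in the first of these from 20 of 10662 without ovary 2 to 1750 of 14051 without ovary 1. In early diplotene-like against pachytene-like they were 7268 of 17716 without ovary 1. In pre-meiotic S-like against GSC-like they were 2883 of 10196, 2475 of 10594 and 4297 of 13109 without ovary 1, 2 and 3. With the ovary as a replicate block the counts were 42 for germline against soma, 16 for pre-meiotic S-like against GSC-like and 3 for stage 1 follicle-like against early diplotene-like. Over all genes these fits called 14919 of 24856, 5635 of 11879 and 3335 of 16462. The block ended no call of a named gene. Pooling cluster 3 with the pachytene-like cells was a setting that was not planned. Against leptotene-zygotene-like cells it gave 43 of 55 members, all higher, beside 4733 of 13195 genes. For early diplotene-like cells against the pool it gave 16 of 59 members higher and 2 lower, beside 5357 of 15821 genes. Pre-meiotic S-like against GSC-like gave 5 with DESeq2, 16 without a filter on low counts and 14 without integration, beside 3112 of 32002, 5734 of 32002 and 4646 of 11358 genes. Leptotene-zygotene-like against pre-meiotic S-like gave 16 at resolution 1.0, beside 3306 of 7737 genes. Stage 1 follicle-like against early diplotene-like gave 2 with the members kept among the variable genes, 2 at resolution 1.0, and 0 when sums were thinned, without integration or without the cells with the highest doublet scores. Beside these, in the same order, 1520 of 15032, 1327 of 14439, 1024 of 14606, 1314 of 16367 and 1025 of 14748 genes were called. The cause was not tested. Of 1490 fold changes of named genes under these settings 1366 kept direction and side of the threshold, 91 lost and 32 gained a call, and 1 turned: *wdr12.L* in pre-meiotic S-like against GSC-like cells had a log2 fold change of -0.87 at resolution 1.0. Under DESeq2, which kept low genes, the median log2 change over all genes was -0.43 in early diplotene-like against pachytene-like cells and -0.16 in pachytene-like against leptotene-zygotene-like cells, where that of the members was 1.11. The summed level in pachytene-like cells was 91.1 without integration. Without the UMIs of ribosomal protein genes it was 100 in pachytene-like cells, 90.4 in the germline and 55.4 in the soma.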

Other observations

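Besides cluster 3, 3 germline clusters were left without a stage name, and they also held transcripts of the members. Their summed level was 91.6 ± 7.35 in cluster 5 and 77.4 ± 5.45 in cluster 10, and 89.4 and 109 in the 2 ovaries with enough cells of cluster 6. In the ovaries of the pachytene-like and later clusters it ran from 75.8 to 95.7, so cluster 10 in ovary 2, at 71.8, lay below that range, and cluster 5 in ovary 2, at 98.5, and cluster 6 in ovary 3 lay above it. The median UMI count per cell was 1110 ± 138 in cluster 5 and 2900 ± 1670 in cluster 10. The level of 82 somatic marker genes in cluster 5 was 11.6, 3.81 and 31.3 in ovaries 1, 2 and 3, against 5.84, 4.18 and 4.59 in the pachytene-like cluster. Its part in the members' level was not tested.

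The factor UBTF showed the homeologs apart. *ubtf.L* was highest in pre-meiotic S-like cells, at 4.11 ± 0.49, and was at 0.52 ± 0.05 in leptotene-zygotene-like and 0.99 ± 0.31 in pachytene-like cells. *ubtf.S* was at 1.03 ± 0.18, 0.43 ± 0.21 and 3.19 ± 0.59 in the same order. The difference between the homeologs was not tested.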
